A study of Mus musculus with 4 samples.

Results

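Apoe and 8 further genes of lipoprotein transport, Clu, Apod, Lpl, Abca1, Abcg1, Vldlr, Lrp1 and Lrp8, were read in the RNA of neural stem cells sorted from the adult mouse brain, in 4 sequencing libraries. They were chosen by symbol as apolipoproteins, lipid exporters, lipoprotein receptors and a lipase, with their levels in these libraries already known, and they are 9 of the 32564 genes to which the deposited transcripts could be matched. The unit is TPM, a relative abundance that is corrected for transcript length and scaled to the same total in every library, and it was summed over all transcripts of a gene. Because the genes were chosen with these levels in view, their levels and the ratios between them are descriptions without a test. The split of each gene between its transcripts was not used in the choice, and for these 9 genes only that split was tested.

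All 4 libraries belong to 1 group. The labels describe untreated, activated cells sorted by flow cytometry as positive for Gfap, Prom1 and Egfr from gfap:GFP animals, in which a reporter marks cells that use the Gfap promoter, at 3 months of age on a CD1/C57BL/6 mixed background. The design text of the series names quiescent cells collected after aCSF or miR204 antagomers instead, no label names either agent, and the labels were followed. Under the design text, part of the spread reported here could come from treatment. Separate animals are not stated for the libraries. SDs and p-values therefore measure the spread between these samples, which may be technical. In such bulk RNA, fewer cells of a type and less RNA per cell cannot be told apart.

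The libraries held 16978938 to 23727664 estimated counts, and mitochondrially encoded genes took 13.5 to 18.4% of TPM. The sorting markers were present, with Gfap at 149 ± 54.4 TPM, Egfr at 89.7 ± 23.1 TPM and Prom1 at 23.1 ± 7.01 TPM (SD, n = 4). Astrocyte genes (8 of 8 above 1 TPM; summed level 4379 to 5973 TPM over the libraries), oligodendrocyte genes (9 of 9; 2519 to 4381 TPM), ependymal genes (8 of 8; 601 to 1211 TPM), neuronal genes (7 of 8; 1066 to 1312 TPM) and microglial genes (10 of 10; 193 to 594 TPM) were all read in the same RNA. Fibroblast genes (1 of 7 above 1 TPM) summed to only 10.9 to 13.9 TPM, with Col3a1, Lum and Slc6a13 at 0 counts. Endothelial or mural genes (2 of 7) summed to 24.0 to 43.4 TPM, with Cdh5 and Kcnj8 at 0 counts. Choroid plexus genes (3 of 6) summed to 16.4 to 34.4 TPM. Of all 19914 genes with a count in any library, 62.8% were above 1 TPM. Counts above 1 TPM in such short lists therefore say little by themselves about a cell type. Library 1 stood apart, with the least oligodendrocyte, microglial, ependymal and erythroid RNA.

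Lipoproteins of the brain are made locally, since those of the blood do not cross into it. Astrocytes and related glia secrete apolipoproteins, which take up cholesterol and phospholipid that ABC transporters move out of the cell, and receptors such as Lrp1, Lrp8 and Vldlr take the loaded particles up into neurons and glia. Some of these receptors also carry signals, above all that of reelin, which guides the placement of neurons.

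Apoe was far the most abundant of the 9 genes and the highest of the matched nuclear protein-coding genes, rank 1 of 16967. Transcripts that could not be matched to a gene took 2.59 to 4.56% of TPM and were not ranked. Clu followed, and none of the other 7 genes exceeded 128 TPM in any library. Apod, Lrp1 and Lrp8 lay between 15.4 and 128 TPM, Abca1 between 20.6 and 35.2 TPM, and Vldlr, Abcg1 and Lpl below 10 TPM. Apod was the exception in its spread, with 8.36 times as much in the highest library as in the lowest.

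Apoe (ENSMUSG00000002985.16; chromosome 7, 19696109 to 19699188, mm10) encodes the main lipid carrier of the brain. Its levels were 13982, 11876, 14730 and 14558 TPM in libraries 1 to 4, a mean of 13786 ± 1313 TPM (SD, n = 4). Library 2 was the lowest and the other 3 lay close together. These values rest on 151084 to 219540 estimated counts, and Apoe alone took 1.19 to 1.47% of all TPM.

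Clu (ENSMUSG00000022037.15; chromosome 14, 65968483 to 65981547), also called apolipoprotein J, encodes clusterin, a secreted chaperone and lipid carrier. It stood at 3654, 3091, 4277 and 3708 TPM in libraries 1 to 4, a mean of 3683 ± 485 TPM and rank 7. Its lowest library was library 2, which was also the lowest for Apoe. The ratio of Apoe to Clu was 3.83, 3.84, 3.44 and 3.93 in the 4 libraries, close to constant across libraries. The summed astrocyte genes, at 5519, 4379, 5973 and 5690 TPM, ranked the libraries in the same order as Apoe and Clu, and their part in these levels was not tested.

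Apod (ENSMUSG00000022548.14; chromosome 16, 31296192 to 31314808) encodes a small carrier of the lipocalin family, which binds single lipid molecules such as arachidonic acid and in the brain is known from astrocytes and myelinating cells. Its levels were 15.4, 78.3, 70.7 and 128 TPM in libraries 1 to 4, a mean of 73.2 ± 46.2 TPM. Library 1 stood below all others and library 4 above them. The estimated counts behind these values were 192, 956, 675 and 1782.

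**Figure D1:**
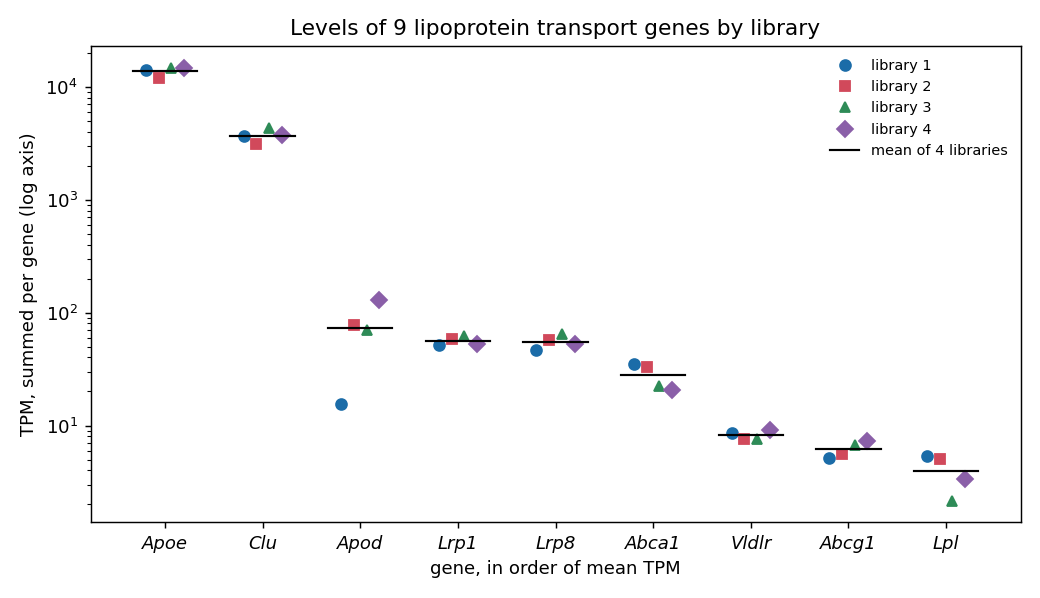
Summed TPM of the 9 genes (log axis) in each library (symbols), with the mean of the 4 libraries as a line. Apoe and Clu lie at or above 3091 TPM in every library, Apod ranges from 15.4 to 128 TPM, and Vldlr, Abcg1 and Lpl lie below 10 TPM.

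The exporters feed the carriers. Abca1 (ENSMUSG00000015243.4; chromosome 4, 53030787 to 53159895) encodes the transporter that loads lipid-poor apolipoproteins with cholesterol and phospholipid. It was at 35.2, 32.7, 22.5 and 20.6 TPM in libraries 1 to 4, a mean of 27.8 ± 7.27 TPM. Libraries 1 and 2 were high and libraries 3 and 4 low. Abcg1 (ENSMUSG00000024030.7; chromosome 17, 31057675 to 31117988) encodes a transporter that passes sterol on to particles already carrying lipid. It was at 5.14, 5.60, 6.67 and 7.27 TPM, a mean of 6.17 ± 0.973 TPM on 247 to 390 estimated counts. Here libraries 3 and 4 were the high ones. Abca1 exceeded Abcg1 in 4 of 4 libraries, but the ratio ran from 6.84 and 5.85 in libraries 1 and 2 to 3.38 and 2.83 in libraries 3 and 4.

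Among the receptors, Lrp1 (ENSMUSG00000040249.15; chromosome 10, 127538161 to 127621148) encodes a very large endocytic receptor that clears Apoe-containing particles and many other ligands. It was at 51.1, 58.2, 62.2 and 52.5 TPM in libraries 1 to 4, a mean of 56.0 ± 5.16 TPM. Lrp8 (ENSMUSG00000028613.14; chromosome 4, 107802261 to 107876840) encodes apolipoprotein E receptor 2, which binds reelin as well as Apoe, and was at 46.5, 57.6, 65.1 and 52.4 TPM, a mean of 55.4 ± 7.92 TPM. The levels of Lrp1 and Lrp8 overlapped, and their ratio lay between 0.956 and 1.10. Both genes were highest in library 3 and lowest in library 1. Vldlr (ENSMUSG00000024924.14; chromosome 19, 27216484 to 27254231) encodes the other reelin receptor of the family. It was at 8.53, 7.52, 7.66 and 9.21 TPM, a mean of 8.23 ± 0.789 TPM on 345 to 506 estimated counts. Lrp8 exceeded it 5.44 to 8.49 times.

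Lpl (ENSMUSG00000015568.16; chromosome 8, 68880491 to 68907448) encodes lipoprotein lipase, the secreted enzyme that frees fatty acids from triglyceride-rich particles. It was the lowest of the 9 genes, at 5.41, 5.01, 2.16 and 3.38 TPM, a mean of 3.99 ± 1.50 TPM. Libraries 1 and 2 were high, as they were for Abca1, and library 3 rested on 52 estimated counts against 131 to 199 in the others. In the order of levels, the library ranges of Apod and Lrp1, of Lrp1 and Lrp8, and of Abcg1 and Lpl overlapped. All other neighbours in the order (Apoe and Clu, Clu and Apod, Lrp8 and Abca1, Abca1 and Vldlr, Vldlr and Abcg1) had ranges that did not overlap.

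The spread of each gene was set beside that of the 9433 genes with a mean of at least 10 TPM, whose SD of log2(TPM + 1) over the 4 libraries had a median of 0.25 and quartiles of 0.17 and 0.36. The SDs of Vldlr (0.12), Lrp1 (0.13), Apoe (0.14), Clu (0.19), Lrp8 (0.20) and Abcg1 (0.20) were all under that median. Vldlr, Abcg1 and Lpl have means below 10 TPM and lie outside that set. The added 1 TPM narrows the SD more at low levels, so their places are not like for like. Abca1 had an SD of 0.37, with 76.8% of those genes varying less, and Lpl an SD of 0.47, with 88.0% varying less. For Apod the SD was 1.29, and 99.7% of those genes varied less. Without library 1 the SD of Apod was 0.46 and its mean 92.4 TPM. The SD was 0.29 for Lpl without library 3, and 0.039 for Apoe and 0.13 for Clu without library 2.

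Several marker lists were, like Apod, lowest in library 1. The deviation of Apod from its own mean of log2(TPM + 1) was -1.85, 0.43, 0.28 and 1.13 in libraries 1 to 4. Oligodendrocyte genes summed to 2519, 3696, 3346 and 4381 TPM, in the same order of libraries. Within that list, 7 of 9 genes were lowest in library 1, among them Mag, which encodes a glycoprotein of myelin, at 12.8, 174, 123 and 180 TPM. The other 2, Mbp at 1774, 1608, 1471 and 1969 TPM and Mobp at 341, 335, 312 and 405 TPM, were lowest in library 3. These genes were named after their values were seen. Erythroid genes summed to 59.9, 641, 449 and 2342 TPM, again lowest in library 1 and highest in library 4, and 4 of their 5 genes were above 1 TPM. Microglial genes (193, 413, 594 and 552 TPM) and ependymal genes (601, 1211, 795 and 997 TPM) were also lowest in library 1. So were choroid plexus genes, at 16.4, 34.4, 26.9 and 32.0 TPM. None of these lists followed the order of Apod in the other libraries. Neuroblast genes ran the other way, at 353, 237, 229 and 190 TPM, and 4 of their 5 genes were above 1 TPM. Over all genes tested, 62.8% were above 1 TPM. Neuronal genes, at 1312, 1071, 1066 and 1108 TPM, were also highest in library 1. Abca1 ranked the libraries as the summed neuroblast genes did, and Abcg1 in the reverse order. Not every single neuroblast gene followed the order of the sum. The part of other cell types in the spread of Apod, Abca1 and Abcg1 was not tested.

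**Figure D2:**
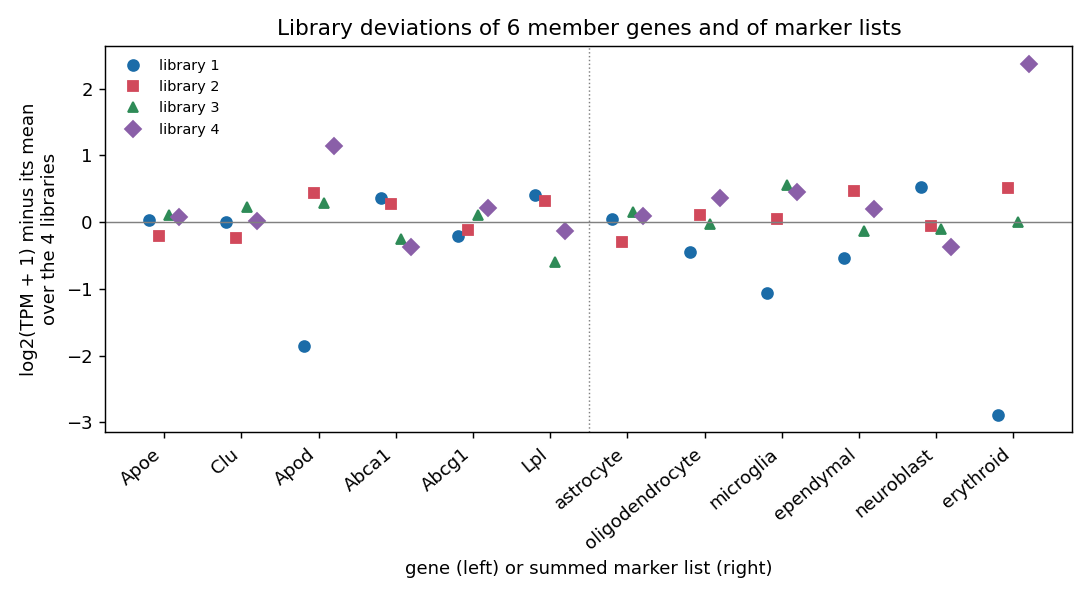
Deviation of log2(TPM + 1) from its mean over the 4 libraries, for 6 of the 9 genes (left) and for the summed level of 6 marker lists (right), with 1 symbol per library. Apod in library 1 lies 1.85 below its mean, and the erythroid and microglial lists are lowest in that library too.

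For the 3 genes of largest spread, the protein-coding genes of at least 10 TPM with the nearest profile over the 4 libraries were sought among 9224 candidates, by Euclidean distance between deviations of log2(TPM + 1). For Apod, whose own profile has a length of 2.23, they were Prr5l (distance 0.24), Trf, which encodes transferrin (0.29), and the chemokine gene Ccl4 (0.35). Trf was at 41.1, 265, 230 and 382 TPM, low in library 1 and high in library 4 like Apod. For Lpl (profile length 0.81) the nearest were Lmo2 (0.09), Wdr36 (0.11) and Kcnab2 (0.16). For Abca1 (0.64) they were Slit2 (0.07), Ass1 (0.09) and Mier1 (0.10), and Slit2, a secreted guidance cue, was at 15.3 TPM in library 2 and 10.1 TPM in library 4. These distances are descriptions without a test.

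The genes differed widely in the transcripts they were made of: the mean share of transcripts not annotated as protein coding ran from 0% for Abca1 to 86.4% for Apod, with an SD between libraries of at most 13.8 percentage points (Vldlr). In a comparison of protein-coding with all other annotated transcripts of the same gene, coding transcripts were higher for 6 of the 9 genes, against 66.3% of 10173 genes tested, and non-coding transcripts were higher for 2, Apod and Lpl, against 6.83% (limma on the difference of log2(TPM + 1), adjusted p under 0.05). Lrp1 passed in neither direction. Abca1, among the 6, had its non-coding transcript at 0 in every library. Its difference is the level of the gene and no result about the split. For Abcg1, whose non-coding transcript was at most 0.26 TPM, the difference is also mostly the level of the gene. The median log2 difference was 1.94 for the 9 genes and 1.65 over all genes tested, and the 6 of 9 genes with coding forms higher are close to the share over all genes.

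Apoe and Clu were made almost wholly of a single coding transcript. Apoe-209 held 93.6, 93.2, 93.1 and 92.6% of Apoe in libraries 1 to 4 (93.1 ± 0.42%, SD, n = 4), and Clu-201 held 97.6, 97.6, 97.0 and 97.9% of Clu (97.5 ± 0.35%). Coding exceeded non-coding transcripts by 4.88 (SE 0.22, limma adjusted p = 5.1e-05) for Apoe and by 7.53 (SE 0.35, limma adjusted p = 5.2e-05) for Clu on the log2 scale, with the same direction in each library. Apoe-209 has a first exon of its own, 37 bases at 19698972 to 19699008 on chromosome 7. Apoe-206 starts from an exon at 19699011 to 19699188, has the same coding bases and held 2.85 ± 0.34% of the gene. At its 3' end it reaches to 19696109, against 19696272 for Apoe-209. It has 294 bases of its own, and the split between these 2 forms also depends on reads there. The 37 bases of the first exon of Apoe-209 are its only ones that no other Apoe transcript holds. Its share therefore rests in part on reads there and otherwise on how shared reads were divided.

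Abca1 and Abcg1 were as simple. Abca1-201 held 100% of Abca1 in all 4 libraries, and Abcg1-201 held 100, 97.4, 96.8 and 96.4% of Abcg1. The coding lead was 4.81 (SE 0.24, limma adjusted p = 5.9e-05) for Abca1, with its non-coding transcript at 0 in every library, and 2.60 (SE 0.19, limma adjusted p = 0.00014) for Abcg1. A fitted difference against a transcript at 0 depends on the added 1 TPM and is no bound. For Abca1 it restates the level of the gene, which was known at the choice. The p-value for Abca1 is therefore no test of the split. The non-coding transcript of Abcg1 was at 0, 0.14, 0.21 and 0.26 TPM, on at most 3.85 estimated counts. The difference for Abcg1 is therefore also mostly the level of the gene, and its p-value adds little about the split. The rRNA gene Gm25447 overlaps Abcg1 over 128 bases, was not among the quantified transcripts, and could share reads with it.

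Apod was the clearest case of the opposite kind. Non-coding transcripts stood at 13.7, 67.3, 63.4 and 104 TPM and coding ones at 1.66, 11.0, 7.22 and 24.6 TPM, so that non-coding forms led in 4 of 4 libraries (log2 difference -2.49, SE 0.18, limma adjusted p = 0.00014). They made up 86.4 ± 4.11% of the gene. Nearly all of this was Apod-201, annotated as a retained intron, at 83.3 ± 4.84%, beside the coding Apod-202 at 10.5 ± 4.07%. Apod-202 has 0 bases that no other Apod transcript holds, against 83 for Apod-201, so the split between them depends on how shared reads were divided. Apod-201 nevertheless contains every coding base of Apod-202. Transcripts that hold the whole coding sequence, whatever their class, made up 96.9 ± 3.37% of Apod. Library 1 was the lowest in both classes.

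Lpl also led with non-coding classes, at 4.14, 3.63, 1.99 and 2.58 TPM against 1.26, 1.38, 0.17 and 0.80 TPM for its only coding transcript, Lpl-201 (log2 difference -1.12, SE 0.13, limma adjusted p = 0.00059; non-coding higher in 4 of 4 libraries). The largest form was Lpl-203 at 45.3 ± 9.01% of the gene, which is annotated for nonsense-mediated decay, the pathway that removes mRNAs with an early stop. It holds the same 1422 coding bases as Lpl-201 (20.6 ± 8.65%). A retained-intron form, Lpl-202, held 34.1 ± 15.0% and was highest in library 3, at 54.7%. Compared with retained-intron forms alone, the Lpl difference was -0.26 (limma adjusted p = 0.28; range over all settings 0.00059 to 0.28). Forms with the whole coding sequence made up 65.9 ± 15.0% of Lpl.

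Lrp1 was divided between both kinds on the TPM scale, with 28.2, 30.4, 23.1 and 30.8 TPM in coding and 22.9, 27.8, 39.2 and 21.7 TPM in non-coding transcripts. The difference was 0.04 (SE 0.23, limma adjusted p = 0.89), and library 3 alone had more non-coding. The full-length Lrp1-201, of 14888 bases, held 42.9 ± 7.27%, and the retained-intron forms Lrp1-204 and Lrp1-208 held 24.0 ± 7.21% and 20.6 ± 7.19%. Lrp1-208 has 0 bases that no other Lrp1 transcript holds, so its share depends on how shared reads were divided. The picture also depends on the scale. In estimated counts, which are not corrected for length, Lrp1-201 held 85.1% and Lrp1-208, only 763 bases long, held 1.71%, and the coding lead became 2.78 (limma adjusted p = 0.00014; range over all settings 0.00014 to 0.986). Lrp1-203, a coding form that holds only part of the coding sequence, was at 7.52, 5.08, 0.075 and 8.06%. The antisense gene Gm16217 overlaps Lrp1, and no strand setting is given in the labels, so reads from it and from Lrp1 cannot be told apart.

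**Figure D3:**
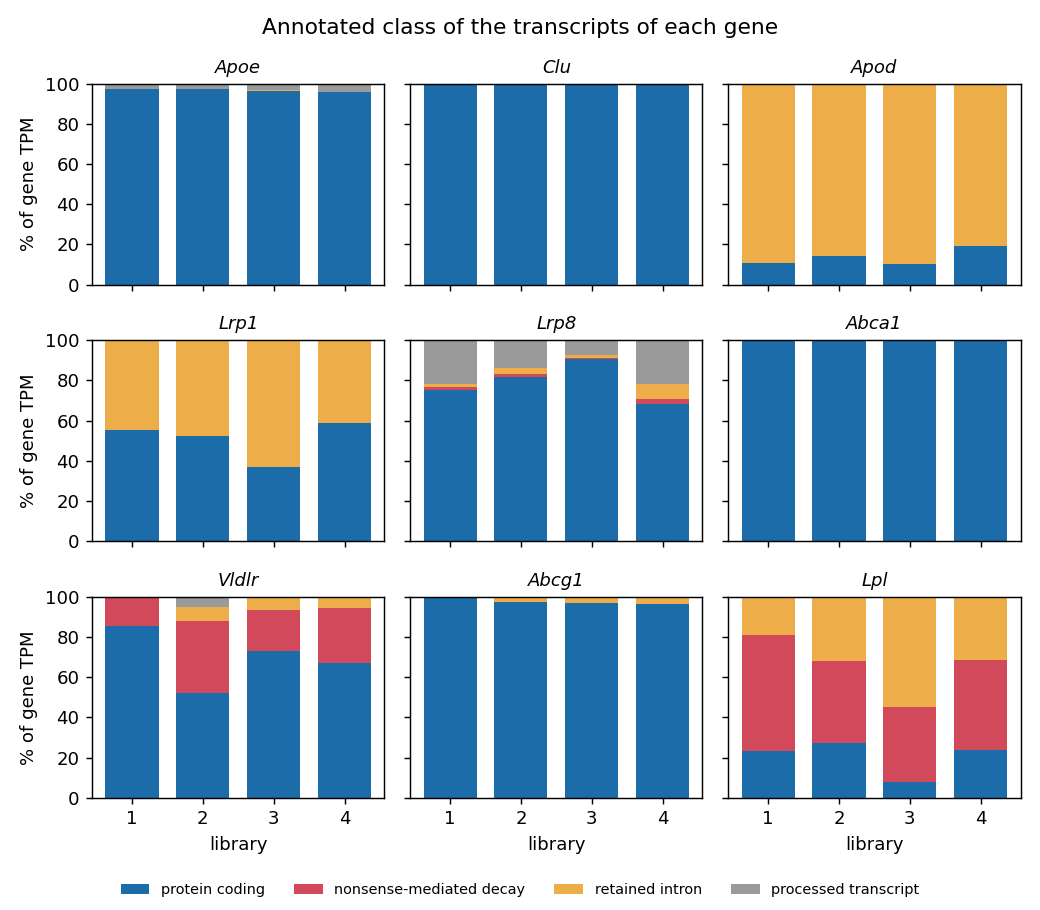
Percent of each gene's TPM in each annotated class of transcript (stacked bars, 1 per library). Apoe, Clu, Abca1 and Abcg1 are almost wholly protein coding, Apod is 86.4% retained intron on average, and Lpl, Lrp1, Lrp8 and Vldlr are mixed.

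Lrp8 and Vldlr were each spread over several coding forms. Coding transcripts of Lrp8 stood at 35.0, 47.2, 59.0 and 35.7 TPM against 11.4, 10.4, 6.10 and 16.7 TPM for the others (log2 difference 1.94, SE 0.36, limma adjusted p = 0.0042; higher in 4 of 4 libraries). Lrp8-201, the coding form with the longest coding sequence (2865 bases), made up 36.0 ± 3.89%. Lrp8-202, whose annotated 5' end is incomplete, made up 26.3 ± 1.40%. Lrp8-209, annotated for nonsense-mediated decay, has more coding bases (2988). Lrp8-204 held 10.1% and the non-coding Lrp8-207 and Lrp8-212 held 10.5% and 5.60%. For Vldlr, coding forms stood at 7.30, 3.94, 5.61 and 6.20 TPM against 1.23, 3.58, 2.05 and 3.01 TPM (log2 difference 0.99, SE 0.31, limma adjusted p = 0.029; higher in 4 of 4 libraries). This call was lost without library 1 (0.69, limma adjusted p = 0.079), library 3 (0.95, adjusted p = 0.108) or library 4 (1.04, adjusted p = 0.074), within a range of 0.000635 to 0.108 over all settings. Vldlr-202 held 38.0, 22.1, 49.1 and 47.3% of the gene. Vldlr-201, annotated for nonsense-mediated decay, held 24.4 ± 9.25% and lacks 65 bases (chromosome 19, 27241235 to 27241299) that Vldlr-202 has. Vldlr-207 held 16.6 ± 10.4%. The antisense genes Lrp8os1 and Lrp8os2 overlap Lrp8, and their reads and those of Lrp8 cannot be told apart.

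These receptors are built from repeats whose folds are held by cysteine pairs, and alternative exons are known to add or remove whole functional blocks. A pair of such exons was read in each gene, and their sequences are printed because the shares below are of transcripts with and without them. They come from the GENCODE M21 transcripts of GRCm38, on the plus strand of chr4:107846239-107846537, chr4:107870012-107870188, chr19:27236240-27236362 and chr19:27246593-27246676. The first is the opening 299 of 381 bases of exon 5 of the 19 exons of Lrp8-201 and encodes ligand-binding repeats. The second is exon 18, which encodes an insert of the cytoplasmic tail known to bind scaffold proteins of the synapse. The third and the fourth are exons 4 and 16 of the 19 exons of Vldlr-207, for a ligand-binding repeat and for the stretch outside the membrane that carries O-linked sugars. Capitals mark cysteine codons in both ligand-binding exons, proline codons in the cytoplasmic insert and serine or threonine codons in the sugar-bearing exon.
Lrp8 ligand-binding exon: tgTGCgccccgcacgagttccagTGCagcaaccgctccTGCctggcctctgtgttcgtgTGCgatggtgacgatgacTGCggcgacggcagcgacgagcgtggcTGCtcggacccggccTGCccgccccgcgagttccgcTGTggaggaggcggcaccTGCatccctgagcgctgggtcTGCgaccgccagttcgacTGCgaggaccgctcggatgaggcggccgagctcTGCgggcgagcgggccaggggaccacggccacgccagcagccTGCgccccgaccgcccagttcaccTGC
Lrp8 cytoplasmic insert exon: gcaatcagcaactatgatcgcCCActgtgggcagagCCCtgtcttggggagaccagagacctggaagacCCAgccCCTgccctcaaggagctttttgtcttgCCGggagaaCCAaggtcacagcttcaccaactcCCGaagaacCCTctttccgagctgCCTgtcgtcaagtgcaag
Vldlr ligand-binding exon: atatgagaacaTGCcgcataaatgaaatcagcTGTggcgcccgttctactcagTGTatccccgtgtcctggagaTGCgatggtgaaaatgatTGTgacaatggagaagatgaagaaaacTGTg
Vldlr sugar-bearing exon: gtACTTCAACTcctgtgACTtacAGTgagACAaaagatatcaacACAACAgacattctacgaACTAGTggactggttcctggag

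The exons are rich in the codons marked. The backgrounds given are the coding sequences of Lrp8-201 and of Vldlr-207. The whole Lrp8 ligand-binding exon has 381 bases and 18 cysteine codons among 126 whole codons (14.3%, against 6.81%). Of these, 14 are in the stretch printed. The ligand-binding exon of Vldlr has 123 bases and 6 cysteine codons among 40 (15.0%, against 7.67%). The cytoplasmic insert of Lrp8 has 177 bases and 9 proline codons of 59 (15.3%, against 6.91%). The sugar-bearing exon of Vldlr has 84 bases, and 10 of its 27 whole codons are for serine or threonine (37.0%, against 12.7%), the residues to which O-linked sugars attach. All 4 lengths are such that leaving the exon out keeps the reading frame.

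Shares were taken over the transcripts of any annotated class that hold both flanking exons, so they are not shares of coding mRNA alone. Forms with the Vldlr ligand-binding exon averaged 3.71 TPM, of which 1.99 TPM was Vldlr-201, annotated for nonsense-mediated decay. Forms without it averaged 3.64 TPM, with 0.385 TPM in the retained-intron Vldlr-204. The Lrp8 ligand-binding exon was present in 57.1, 47.2, 58.1 and 59.7% of such TPM in libraries 1 to 4 (55.5 ± 5.68%, SD, n = 4), and the cytoplasmic insert in 55.7, 50.9, 50.0 and 49.0% (51.4 ± 2.97%). Forms with and without each Lrp8 exon were thus read in every library. The Vldlr ligand-binding exon was present in 43.3, 69.3, 44.2 and 45.3% (50.5 ± 12.6%), with library 2 apart from the others. The sugar-bearing exon was in 17.8, 34.4, 19.4 and 6.71% (19.6 ± 11.4%), the lowest share of the 4 exons in every library.

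These shares depend on how the annotation ties exons to 3' ends. Lrp8-202 lacks both alternative exons of Lrp8 and alone has 2673 more bases at its 3' end, and Vldlr-207 has both alternative exons of Vldlr and alone has 4369 more. Reads in those bases can be assigned only to those transcripts. Without Lrp8-202, an alternative chosen after seeing the data, the Lrp8 ligand-binding exon was at 80.4 ± 11.1% and the cytoplasmic insert at 76.6 ± 4.24%. Without Vldlr-207 the Vldlr ligand-binding exon was at 39.9%, and the sugar-bearing exon, which no other quantified transcript holds, has no value.

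**Figure D4:**
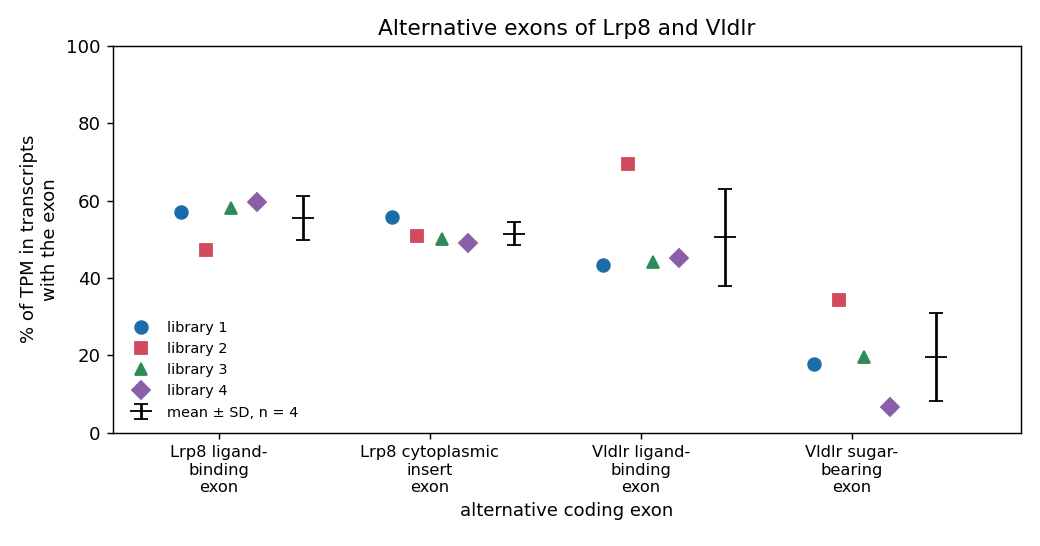
Percent of TPM in transcripts that include each alternative exon, among those of any class with both flanking exons, per library (symbols) with mean ± SD (bars, n = 4). The 2 Lrp8 exons lie between 47.2 and 59.7%, the Vldlr ligand-binding exon is at 69.3% in library 2, and the Vldlr sugar-bearing exon is at or below 34.4%.

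Other genes of lipoprotein and sterol transport were read from 7 lists of 75 genes. Of these, 6 had no count, and of the 69 tested 47 (68.1%) were above 1 TPM, against 62.8% of 19914 genes tested, and 10 (14.5%) were below it, against 23.2% (limma on log2(TPM + 1), adjusted p under 0.05). The median difference from 1 TPM was 2.97 on the log2 scale, beside 2.15 over all genes tested. By edgeR's quasi-likelihood test 48 were above and 1 below. The lists were chosen with earlier results of these data known. Their counts and medians beside those over all genes are therefore descriptions and no test of the lists. Genes named here only to spell out a small count were chosen after their values were seen.

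Other apolipoproteins were mostly low. Only Apoc1, a small partner of Apoe on particles, at 34.1 ± 3.07 TPM, and Apoc3 at 6.63 ± 3.22 TPM were above 1 TPM. Apoa2, Apoh and Apom were below it, Apoa1 (1.39 ± 0.501 TPM) and Apoc4 (0.927 ± 0.455 TPM) passed in neither direction, and Apoa4, Apoa5, Apob and Apoc2 had 0 counts. For Apob, the scaffold of blood lipoproteins from liver and gut, 3 counts would be at most 0.037 TPM in any library, and for Apoc2, which activates Lpl, 0.585 TPM. Such limits cover counting error only.

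Of 9 other lipid transporters 5 were above 1 TPM, led by Abca2 (30.4 ± 8.65 TPM), Abca3 (20.4 ± 2.04 TPM), Abcg4 (16.4 ± 7.43 TPM), a close relative of Abcg1, and Abca5 (11.5 ± 4.08 TPM). Abca6 was below it at 0.425 ± 0.496 TPM, a call lost when any of the 4 libraries was left out (log2 difference -0.73 to -0.41) and with edgeR (-1.24). Abca7, Abca9 and Abca8b (0.570 ± 0.464 TPM) passed in neither direction.

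Of 19 other receptors 13 were above 1 TPM, 3 below it (Lrp2, Msr1 and Olr1) and 3 in neither direction (Lrp5, Lrp1b and Cd36). The highest were Lrp10 (62.8 ± 7.32 TPM), Lrp3 (57.7 ± 19.0 TPM) and the sorting receptors Sort1 (54.1 ± 7.26 TPM) and Sorl1 (29.9 ± 2.31 TPM), beside 56.0 TPM for Lrp1 and 55.4 TPM for Lrp8. The scavenger receptors Msr1 (0.303 ± 0.310 TPM) and Olr1 (0.083 ± 0.077 TPM) were lowest, and the call of Msr1 was lost with edgeR (-1.74) and without library 2 (-0.56).

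Of the 9 ligands, chaperones and adaptors of the receptors 6 were above 1 TPM. They included the receptor chaperones Lrpap1 (159 ± 19.4 TPM) and Mesd (75.1 ± 9.61 TPM), the sorting nexin Snx17 (112 ± 13.8 TPM), which recycles Lrp1, and Dab1 (95.2 ± 17.1 TPM), the adaptor through which Lrp8 and Vldlr pass on the reelin signal. The ligand Reln itself was at 1.66 ± 1.52 TPM and was among the 3 that passed in neither direction. With protein-coding transcripts only, Reln was below 1 TPM (log2 difference -0.74, limma adjusted p = 0.0015; its range over all settings ran to 0.99).

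Of 13 other lipases and remodelling genes 8 were above 1 TPM, 3 below it, Lipg and Lipc among them, and Gpihbp1 and Angptl8 had 0 counts. Pltp, which moves phospholipid between particles, was at 379 ± 118 TPM and the secreted phospholipase Pla2g7 at 350.0 ± 50.3 TPM, beside 3.99 TPM for Lpl. Sel1l (61.5 ± 15.3 TPM) and Lmf2 (57.2 ± 14.2 TPM) followed, and Sel1l is known to be needed for Lpl to leave the endoplasmic reticulum. Gpihbp1 anchors Lpl to capillary walls and is known from endothelial cells. Of the 7 endothelial or mural genes, Cdh5 and Kcnj8 had 0 counts and 3 were below 1 TPM (Cldn5, Flt1 and Rgs5). The 2 above it were Pdgfrb at 31.8 ± 8.59 TPM and Pecam1 at 3.87 ± 0.373 TPM. Most of Pecam1 was non-coding, at 3.50 TPM against 0.370 TPM in coding transcripts, and its highest form was a retained intron.

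All 7 sterol-sensing transcription factors were above 1 TPM. The liver X receptors Nr1h2 and Nr1h3, which pair with retinoid X receptors to turn on Abca1, Abcg1 and Apoe when oxysterols rise, were at 109 ± 13.5 and 11.0 ± 3.18 TPM. Srebf1 (283 ± 48.0 TPM) and Srebf2 (99.9 ± 10.5 TPM), which drive lipid and cholesterol synthesis, were high, and the retinoid X receptors Rxrb and Rxra were at 72.2 ± 6.67 and 15.1 ± 4.44 TPM. Of 7 genes of sterol handling inside the cell 6 were above 1 TPM, led by the cholesterol esterifying Soat1 (97.3 ± 16.9 TPM), the lysosomal carrier Npc2 (68.8 ± 9.10 TPM), the cholesterol hydroxylase Cyp46a1 (68.2 ± 7.70 TPM) and Stard3 (35.2 ± 7.62 TPM). Mttp was at 20.6 ± 4.58 TPM, while Ch25h (1.59 ± 1.33 TPM) passed in neither direction.

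**Figure D5:**
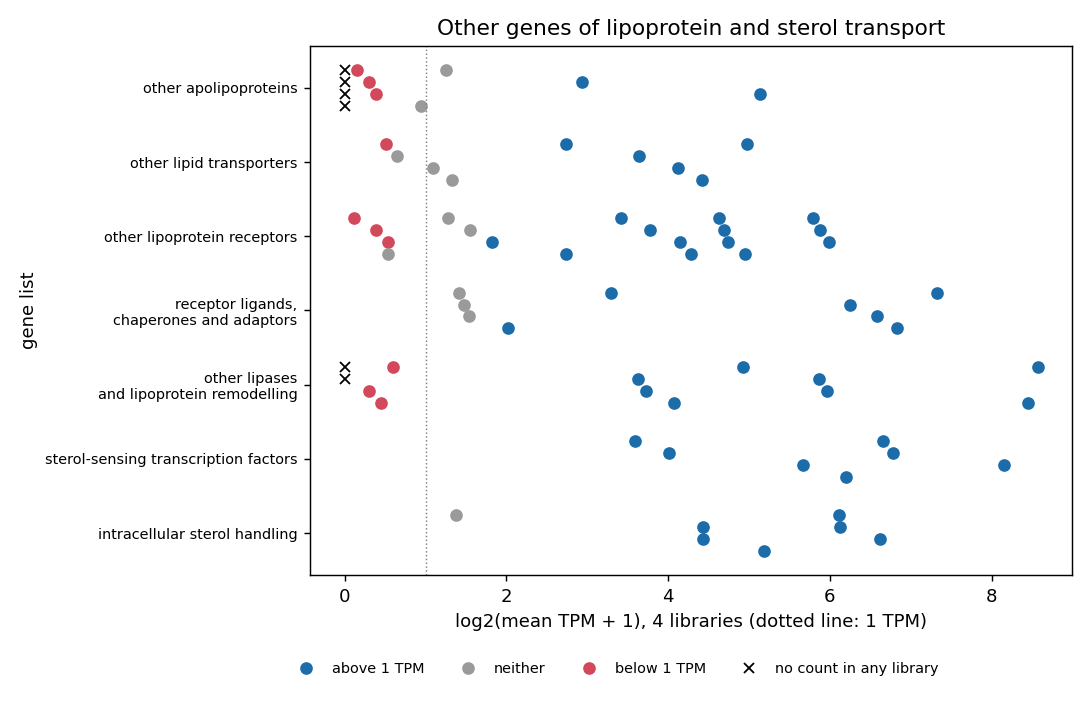
Mean level of each gene of the 7 lists as log2(mean TPM + 1) over 4 libraries, coloured by its call against 1 TPM (dotted line), with crosses for genes without a count. All 7 transcription factors were called above 1 TPM, while 2 of 11 other apolipoproteins were.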

How the data were processed

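RNA of 4 libraries, prepared by SMART-Seq v4 from low input per the labels' protocols, was quantified by the authors with kallisto and mm10, and sleuth is also named, per the submitters' processing notes, with versions and transcript release not given in the sources used here. Each deposited file holds an estimated count and a TPM per transcript; reads shared by transcripts are divided by estimate, so shares of forms with few bases of their own are uncertain.

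Deposited TPM was summed per gene after matching transcripts to GENCODE M21 (GRCm38; 98294 of 99567 matched, 65 of them of the 9 genes). Depth was 16978938 to 23727664 estimated counts, and no molecular identifiers are named, so limits cover counting error only. Genes with a count in any library were tested against 1 TPM, and coding against other transcripts of a gene, with limma and a mean-variance trend on log2(TPM + 1), two-sided, Benjamini-Hochberg adjusted p under 0.05 over all genes. The code was tested on simulated data. The members and lists were chosen with earlier results of these data known.

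Named were all 9 genes, the 4 highest and 2 lowest of each list, transcripts of at least 5% of a gene's TPM with its highest coding form, and for the 3 genes of largest SD the 3 genes of nearest profile. Some genes are not reported here by name and stay in the counts over lists. Alternatives were a pseudocount of 0.1, filters of 5 counts or 1 TPM on mean, TMM and DESeq2 scaling, rescaling over nuclear protein-coding genes, coding or most abundant transcripts only, CPM or count shares, retained introns only, edgeR's quasi-likelihood test on counts rounded to whole numbers, and each library left out. Software was R 4.3.3, limma 3.58.1, edgeR 4.0.16, DESeq2 1.42.0, Python 3.11.15, pandas 2.3.3, numpy 2.4.6 and matplotlib 3.10.9.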

Additional observations from a re-analysis of the deposited data

Results flagged for a closer look

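Of 67 results with a value in each of the 4 libraries, 5 had 1 library set apart from the other 3 by more than Dixon's limit for 4 values, and chance does this in about 1 of 20 such groups. Vldlr-206, a short coding form with both annotated ends incomplete, held 28.3% of Vldlr in library 1 against 0, 0 and 3.78% in the others. The Vldlr ligand-binding exon was present in 69.3% in library 2 against 43.3 to 45.3%. The level of the sorting receptor gene Sorl1 was 26.5 TPM in library 3 against 30.9 to 31.3 TPM. Npc2 was at 55.3 TPM in library 2 against 71.5 to 74.8 TPM. Mttp was at 27.4 TPM in library 3 against 18.0 to 18.4 TPM.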

How the results depend on the processing

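Over all alternatives 736 single values or counts stayed as reported, in direction and in call or within the replicate spread, 48 moved, 12 lost a call, 2 gained one and 9 changed sign. Genes below 1 TPM numbered 4628, but 949 with at least 5 counts, 2773 with coding transcripts only and 1935 with edgeR. Pathway genes below it numbered 10, but 6 with at least 5 counts, 6 after rescaling, 1 with edgeR and 5 to 7 with a library left out. Genes with non-coding above coding transcripts numbered 695, but 416 in CPM and 249 with retained introns only; of the 9 genes, 2 became 1 with retained introns only. The cause was not tested, apart from the smaller number of genes or samples that some settings leave. Values near 1 TPM that changed sign on the log2 scale were those of Apoc4, Reln and Ch25h. Apoc4 was at 0.12 after rescaling and 0.10 without library 1. Reln was at -0.74 with coding transcripts only, -0.091 and -0.0069 without libraries 1 and 3, and up to 0.54 without library 2. Ch25h was at -0.19 with a pseudocount of 0.1, -0.085 without library 3, and up to 0.59 without library 1. The coding difference of Lrp1 also changed sign (-0.045 and -0.11 without libraries 1 and 4, and up to 0.30 without library 3). Rescaling over nuclear protein-coding genes raised the median gene by 0.38 (log2), and the levels of the 9 genes rose with it. No paired analysis was possible because all libraries belong to 1 group. Lpl, Abcg1 and Vldlr rest on at most 506 estimated counts in any library, which limits their transcript shares.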
